A study of Mus musculus with 10 samples.

Results

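The control transcriptome of mouse myotubes was described from the 2 RNA-seq libraries treated with GAP-scr, out of 10 libraries in the series, of which 6 were RNA-seq and 4 ChIRP-seq. A gapmer is an antisense oligonucleotide that directs RNase H to a transcript, and GAP-scr is the scrambled gapmer that served as the control for a knock-down of the muscle long non-coding RNA Charme. The cells were differentiated in vitro for 2 days, and polyadenylated RNA was sequenced with a stranded kit. The labels name the material as in vitro differentiated myotubes, without saying whether they came from a cell line or from primary cells, and give no strain, age or sex. Because both libraries were gapmer-treated, they stand for control-treated rather than untreated cells. No library of undifferentiated myoblasts was analysed here, so every level below is a level at day 2 and not a change with differentiation. The 2 libraries, called A and B, are biological replicates by the series text, which does not say whether they came from separate cultures.

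Skeletal muscle fibres arise when myoblasts, the proliferating precursors, leave the cell cycle, switch on Myog and fuse into multinucleate myotubes. The new myotube then builds sarcomeres, repeating units in which thin filaments of actin, tropomyosin and troponin slide past thick filaments of myosin. Most of these proteins come in families whose members are used at different ages or in different fibre types. Embryonic muscle uses embryonic myosin heavy chain, Myh3, cardiac actin, Actc1, and cardiac troponin T, Tnnt2, which later give way to adult members. Slow and fast fibres use separate troponins, myosins and calcium pumps. The level of each member in a culture therefore shows which of these forms its RNA holds.

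Levels were deposited as FPKM, fragment numbers scaled to the length of the transcript and to the size of the library, so that genes can be compared per length. The table held 11228 genes, and Rn45s, the ribosomal RNA precursor, was left out of ranks and sums, which leaves 11227. Median levels were 12.2 FPKM in library A and 11.9 in library B, and the FPKM of all genes summed to 552413 and 577529. Across genes, which are not replicates, the libraries correlated at a Pearson r of 0.989 and a Spearman rho of 0.987 on the log2(FPKM + 1) scale. Library A stood apart in Rn45s, at 3387 FPKM against 176 in library B. Sequencing depth is unknown, because FPKM values do not retain it, so the counting error of low genes cannot be given. With 2 libraries of 1 group there is no test between groups, and even 2 libraries against 2 cannot go below p = 0.333 in a two-sided exact permutation test. Values are therefore given for library A and then library B, in that order, in place of a mean and SD. Levels are of whole genes, since the table does not separate splice forms. In a culture of this kind fewer cells of a type and less RNA per cell cannot be told apart.

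The most abundant messages were a mixture of contractile proteins and the protein synthesis machinery. Skeletal α-actin, Acta1, the main thin-filament protein of adult skeletal muscle, had the highest level by the mean of both libraries at 5636 and 6323 FPKM. Translation elongation factor Eef1a1 followed at 5738 and 6091 FPKM, and it was above Acta1 in library A. The fast regulatory light chain of myosin, Mylpf, was the third at 5399 and 6276 FPKM. These levels lay so close together that the order among them differed between the libraries. Tpt1, an abundant growth-associated protein, stood at 5244 and 5987 FPKM, and the ribosomal protein Rpl41 at 4859 and 5563 FPKM. Cardiac α-actin, Actc1, ranked at 11, H19, the imprinted long non-coding RNA of embryonic tissues, at 12, and troponin C of slow and cardiac muscle, Tnnc1, at 14. H19 reached 3242 and 3656 FPKM and was the only member of the long non-coding RNA list among the 20 highest genes.

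Most of the other genes among the 20 highest served protein synthesis, metabolism and the cytoskeleton. Rps12 stood at 4341 and 5582 FPKM, Rpl23a at 3978 and 3371, Rps29 at 2591 and 3708, Rps28 at 2520 and 3534, and Rpl10 at 2700 and 3060. The actin monomer binder Tmsb10 reached 5088 and 4319 FPKM, and the galectin Lgals1 4262 and 5003 FPKM. The glycolytic enzyme Gapdh stood at 2906 and 3744 FPKM, the proline isomerase Ppia at 2950 and 2811 FPKM, the calcium-binding protein S100a4 at 2860 and 3313 FPKM, and a gene model listed as Gm12191 at 3722 and 4197 FPKM. Of the genes named here Rps29 and Rps28 differed most, and both were higher in library B. The 10 highest genes by the mean of both libraries held 8.74% and 9.13% of the summed FPKM, and the 100 highest 35.4% and 37.3%. Of the 10 genes highest in each library 8 were shared, and of the 100 highest 93.

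**Figure D1:**
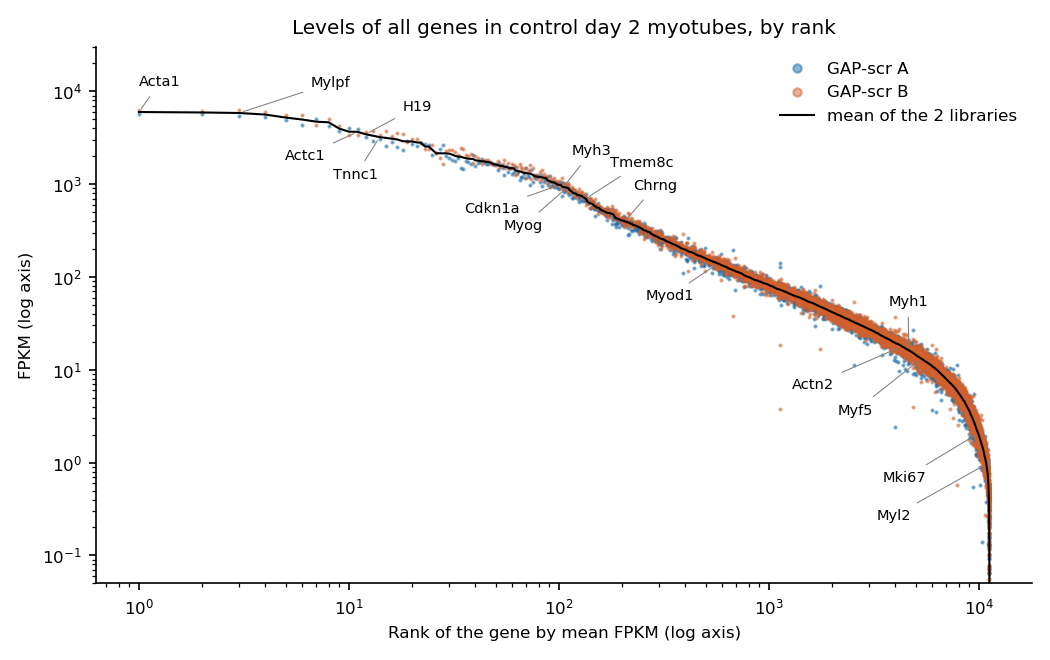
Level of each gene in FPKM (vertical log axis) against its rank by the mean of both libraries (horizontal log axis), with a blue point for library A, an orange point for library B and a line for the mean. Contractile genes such as Acta1 at 5636 and 6323 FPKM sit at the far left, and Mki67, at 2.04 and 2.07 FPKM, and Myl2, at 0.898 and 1.03 FPKM, at the lower right.

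Few genes carried most of the RNA. In both libraries 88 genes, 0.784% of the table, reached 1000 FPKM, and they held 33.3% and 34.9% of the summed FPKM. A level of 100 FPKM in both libraries was reached by 749 genes, 6.67% of the table, which held 65.0% and 66.9%. A level of 10 FPKM was reached by 6009 genes, or 53.5%, and 2735 genes, 24.4%, were under 5 FPKM in both libraries. The lists of genes described below are read against these shares. Cytosolic ribosomal protein genes made up 54 of the 100 highest genes, sarcomere genes 9, glycolytic genes 5 and nuclear-encoded subunits of the respiratory chain 3. The list of translation factors, in which Tpt1 was counted, had 3 there: Eef1a1, Tpt1 and Eef2.

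By summed level the ribosomal proteins were the largest of the lists compared. Their 81 genes held 20.02% and 21.3% of the summed FPKM, with a median of 1366 FPKM, and 79 of them reached 100 FPKM in both libraries. The exceptions were Rpl34, at 9.7 and 9.9 FPKM, and Rps27, at 3.37 and 2.71. The pseudogene Rpl34-ps1, outside the list, stood at 1179 and 1424 FPKM. How reads that match several genes were assigned is not stated, so levels of single ribosomal genes are uncertain. The sarcomere lists, 70 genes with a level from actins and myosins to Z-disc proteins, held 5.89% and 5.93%. Their median was 48.9 FPKM against 12.1 for all genes, 26 of the 70 reached 100 FPKM in both libraries and 53 reached 10. The respiratory chain, with 81 genes, held 3.98% and 4.17%, with 61 genes at or above 100 FPKM in both libraries. The sarcomere share thus rested on few genes at very high levels, where the ribosomal share was spread over nearly the whole list. FPKM weights each gene per length, so these shares stand for transcripts and not for fragments.

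The start regions of 8 genes are shown: Acta1, Mylpf, Tnnc1 and Myh3, the highest of their families, Actc1 and Chrng, the embryonic actin and the fetal receptor subunit, and Myh1 and Myl2, an adult fast and a slow member with low levels. Each is the 250 bases before the start of the RefSeq gene in GRCm38.p6, read 5′ to 3′ on the gene's own strand. Capitals mark matches to TATAAA on the forward strand and, on either strand, to CAGCTG (a form of the E-box CANNTG, which MyoD family factors are known to bind), the CArG box known to be bound by serum response factor, and the MEF2 site.

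Acta1, chr8:123894776-123895025, minus strand: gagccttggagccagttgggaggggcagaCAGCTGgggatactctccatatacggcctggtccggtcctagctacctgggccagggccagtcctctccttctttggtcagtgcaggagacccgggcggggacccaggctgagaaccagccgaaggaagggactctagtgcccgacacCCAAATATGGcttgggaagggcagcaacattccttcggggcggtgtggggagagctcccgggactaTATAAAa
Actc1, chr2:114052876-114053125, minus strand: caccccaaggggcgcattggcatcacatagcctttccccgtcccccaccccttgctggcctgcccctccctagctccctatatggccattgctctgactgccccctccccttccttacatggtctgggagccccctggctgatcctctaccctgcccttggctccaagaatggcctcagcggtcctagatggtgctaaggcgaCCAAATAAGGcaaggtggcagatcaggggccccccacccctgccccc
Mylpf, chr7:127211358-127211607, plus strand: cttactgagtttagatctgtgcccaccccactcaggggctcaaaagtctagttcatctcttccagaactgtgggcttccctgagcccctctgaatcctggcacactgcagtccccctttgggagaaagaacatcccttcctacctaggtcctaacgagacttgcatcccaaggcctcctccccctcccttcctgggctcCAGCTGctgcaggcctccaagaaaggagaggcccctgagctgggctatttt
Tnnc1, chr14:31208062-31208311, plus strand: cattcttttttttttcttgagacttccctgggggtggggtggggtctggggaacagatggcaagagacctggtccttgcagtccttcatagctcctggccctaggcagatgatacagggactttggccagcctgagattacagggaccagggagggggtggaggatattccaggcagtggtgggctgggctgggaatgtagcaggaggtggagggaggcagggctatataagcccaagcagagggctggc
Myh3, chr11:67078050-67078299, plus strand: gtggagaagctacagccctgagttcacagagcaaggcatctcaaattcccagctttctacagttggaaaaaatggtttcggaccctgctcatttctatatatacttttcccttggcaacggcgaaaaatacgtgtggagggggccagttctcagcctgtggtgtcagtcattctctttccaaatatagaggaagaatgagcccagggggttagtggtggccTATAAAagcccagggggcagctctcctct
Myh1, chr11:67199852-67200101, plus strand: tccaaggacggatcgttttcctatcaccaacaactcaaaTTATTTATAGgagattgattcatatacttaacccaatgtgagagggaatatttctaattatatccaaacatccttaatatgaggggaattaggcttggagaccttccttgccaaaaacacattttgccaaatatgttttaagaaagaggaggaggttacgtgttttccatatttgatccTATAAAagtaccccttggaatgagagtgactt
Myl2, chr5:122092474-122092723, plus strand: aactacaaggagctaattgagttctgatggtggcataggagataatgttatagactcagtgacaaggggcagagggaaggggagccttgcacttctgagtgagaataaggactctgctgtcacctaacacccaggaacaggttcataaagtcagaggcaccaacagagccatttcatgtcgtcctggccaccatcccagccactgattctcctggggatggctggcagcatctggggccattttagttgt
Chrng, chr1:87205561-87205810, plus strand: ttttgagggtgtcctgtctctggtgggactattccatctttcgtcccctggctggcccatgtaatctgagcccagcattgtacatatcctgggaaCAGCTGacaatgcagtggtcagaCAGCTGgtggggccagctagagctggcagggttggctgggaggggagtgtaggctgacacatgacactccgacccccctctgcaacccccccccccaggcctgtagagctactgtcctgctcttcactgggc

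Acta1 carried all of TATAAA, a CArG box and CAGCTG in this window, and Actc1 a CArG box alone. TATAAA in Acta1 lay 7 to 2 bases before the annotated start, nearer to it than in Myh3 and Myh1. The CArG box lay 73 to 64 bases before the annotated start in Acta1 and 47 to 38 bases before it in Actc1. Mylpf had CAGCTG 51 to 46 bases before the start, and Chrng had it at 155 to 150 and at 132 to 127. Myh3 and Myh1, the embryonic and an adult fast heavy chain, both had TATAAA, at 29 to 24 and 32 to 27 bases, and Myh1 had a MEF2 site at 211 to 202. In Tnnc1, among the highest genes, and Myl2, among the lowest, none of these motifs was found in the window. The Tnnc1 window does hold TATATAA near its end, which the search for exact TATAAA did not mark. None of the marked matches overlap each other. The motifs and the window were chosen after the data had been seen, and a match is a run of letters and not a measured binding site.

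Over all genes the same searches gave the following shares. CAGCTG occurred in 3450 of 27025 promoters in the RefSeq table (12.8%), in 11.7% of the 9017 promoters of genes with a level, and in 20 of 58 sarcomere promoters (34.5%). Excitation-contraction coupling genes had it in 9 of 19, acetylcholine receptor and junction genes in 3 of 8, and ribosomal proteins in 2 of 60. The CArG box occurred in 1.40% of all promoters and in 5 of 58 sarcomere promoters. The MEF2 site occurred in 3.01% of all and in 9 of 58 of the sarcomere lists. TATAAA occurred in 8.12% of all promoters in the table, in 3.65% of those of genes with a mean under 10 FPKM, and in 9.86% of the 71 whose mean was 1000 FPKM or more. No test was made of these shares.

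Actins were the highest contractile family, and the adult skeletal member led. Of Acta1 and Actc1 together, Acta1 made up 59.1% and 64.9% and Actc1, the form of the heart and of embryonic skeletal muscle, 40.9% and 35.1%. Actc1 itself was at 3894 and 3414.5 FPKM, so that Acta1 was higher by 1.45-fold and 1.85-fold. Smooth muscle α-actin, Acta2, a gene that differentiating myoblasts also express, stood at 2028 and 2258 FPKM. The cytoplasmic actins followed, Actg1 at 1674 and 1905 FPKM and Actb at 969 and 1210 FPKM. Smooth muscle γ-actin, Actg2, was far lower at 27.5 and 34.7 FPKM. Actin coding sequences are nearly identical, and how reads that match more than 1 gene were assigned is not stated in the labels, so the split among actins is uncertain.

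Sarcomeric myosin heavy chain RNA was almost entirely the embryonic form. Myh3 stood at 918 and 944 FPKM and made up 97.0% and 96.8% of the 6 sarcomeric heavy chains with a level. The adult fast IIX chain, Myh1, came next at 14.0 and 18.6 FPKM, so that Myh3 was 65.7-fold and 50.8-fold above it. The slow chain Myh7 was at 5.55 and 5.51 FPKM, the perinatal chain Myh8 at 4.56 and 3.57, the adult fast IIB chain Myh4 at 2.56 and 1.60, and Myh7b at 1.87 and 1.66. The perinatal chain, which follows the embryonic form in development, was thus lower than adult Myh1 in both libraries, by 3.06-fold and 5.20-fold. In the RefSeq gene order of chromosome 11, Myh3, Myh2, Myh1, Myh4, Myh8 and Myh13 lie next to each other with no other protein-coding gene between, and the levels of the 4 with a value did not follow that order. Myh2, Myh6 and Myh13 were not analysed here. Among non-muscle heavy chains Myh9 was at 308 and 334 FPKM, below Myh3 by 2.98-fold and 2.83-fold, and Myh10 at 14.2 and 13.6 FPKM.

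Light chains were mixed for the essential position and nearly pure for the regulatory one. Mylpf made up 82.0% and 82.6% of the sarcomeric light chains, and its slow and ventricular counterpart Myl2 was at 0.898 and 1.03 FPKM, a ratio of 6013 and 6103. Of the essential, or alkali, light chains the fast form Myl1 was at 623 and 657 FPKM and the embryonic and atrial form Myl4 at 372 and 517 FPKM, and Myl1 was higher in both libraries. Myl6b was at 193 and 147 FPKM. Mylpf exceeded the 3 alkali light chains together by 4.55-fold and 4.75-fold, and Myh3 by 5.88-fold and 6.65-fold. The non-muscle light chain Myl6 stood at 782 and 887 FPKM, Myl12a at 402 and 448, Myl9 at 191 and 260, and Myl12b at 78.3 and 99.9. Of the light chains 8 of 9 were higher in library B, where 45.6% of all genes were higher, but 0 of 8 with a mean of 5 FPKM or more differed over 1.5-fold. This lean was not particular to light chains. Ribosomal protein genes were higher in library B in 57 of 81 and glycolytic genes in 16 of 19, whereas chaperones were in 14 of 31.

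Troponin subunits came from the cardiac, slow and fast sets together. Troponin T binds tropomyosin, troponin I holds back contraction and troponin C binds calcium. Cardiac troponin T, Tnnt2, was the highest of its kind at 1477 and 1496 FPKM, the fast form Tnnt3 was at 1258 and 1149, and the slow form Tnnt1 at 519 and 522. Tnnt2 exceeded Tnnt3 by 1.17-fold and 1.302-fold, which was more than the difference between the libraries but not by much. For troponin I the slow form Tnni1, at 409 and 571 FPKM, and the fast form Tnni2, at 450 and 529, changed order between the libraries and cannot be ranked. Cardiac troponin I, Tnni3, was at 1.26 and 1.11 FPKM, although its neighbour on chromosome 7 is Tnnt1, with no protein-coding gene between them. Troponin C was mainly the slow and cardiac Tnnc1, at 3039 and 3374 FPKM (65.6% and 67.0%), and the fast Tnnc2 was at 1592 and 1660. Summed by kind, troponin T came to 0.703 and 0.629 of troponin C, and troponin I to 0.186 and 0.219, although the assembled complex holds them in equal number.

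In the remaining filament families the leading members were Tpm1 and Tpm2, Actn3 and Mybph. Tropomyosin lies along the thin filament, and Tpm1, at 1170 and 1185 FPKM, and Tpm2, at 1062 and 898, exceeded Tpm4, at 167 and 174, and Tpm3, at 76.1 and 83.3. Among α-actinins, which anchor thin filaments in the Z-disc, the fast-fibre form Actn3 was at 305 and 303 FPKM and the more general sarcomeric form Actn2 at 20.1 and 15.6, a ratio of 15.2 and 19.4. The non-muscle forms Actn4, at 63.5 and 77.3 FPKM, and Actn1, at 62.9 and 76.4, were both above Actn2. Mybph, a thick-filament protein related to myosin binding protein C, was at 567 and 497 FPKM, and the slow Mybpc1 at 4.63 and 2.44.

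**Figure D2:**
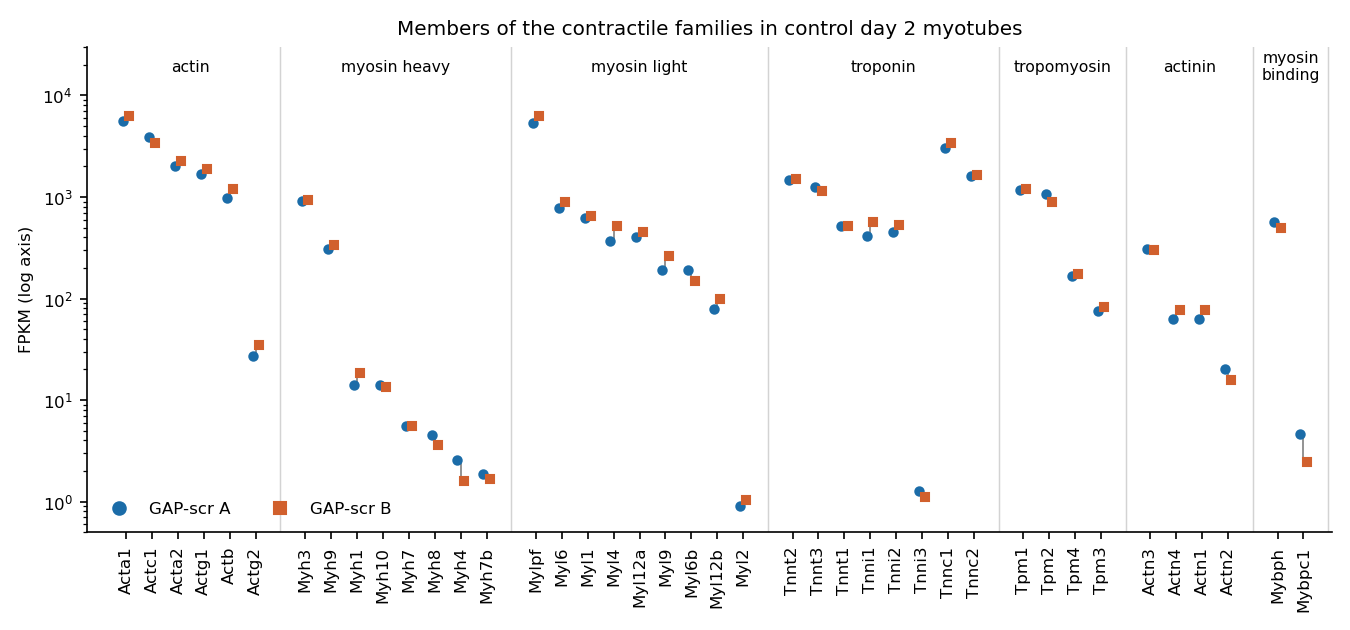
FPKM (vertical log axis) of each family member with a level, with a blue circle for library A and an orange square for library B, joined by a line. Myh3, at 918 and 944 FPKM, stands far above the other sarcomeric heavy chains, whereas Tnnt2 at 1477 and 1496 FPKM and Tnnt3 at 1258 and 1149 FPKM lie close together.

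Giant scaffolds of the sarcomere stood at moderate levels, 6 of 8 of them at or above 10 FPKM in both libraries. The M-band protein Myom2 was at 104 and 108 FPKM, nebulin, Neb, which runs along the thin filament, at 62.6 and 40.2, Myom3 at 40.4 and 30.9, and titin, Ttn, which spans from Z-disc to M-band, at 28.7 and 17.4. Obsl1 stood at 27.5 and 29.2 FPKM and Myom1 at 27.1 and 26.6. Of 8 genes 1 reached 100 FPKM in both libraries, and 2 of 8 were higher in library B, with a median log2 difference of -0.36 between B and A. Neb and Ttn were the members that differed over 1.5-fold, both lower in library B. Rn45s was also lower in library B, and its part in this was not tested.

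Proteins of the Z-disc and of thin-filament assembly ranged widely. Desmin, Des, the muscle intermediate filament, led at 1163 and 1478 FPKM, followed by the small heat shock protein Cryab at 261 and 243, Klhl41, a stabiliser of thin filaments, at 260 and 215, Pdlim7 at 184 and 184, the capping protein Capzb at 185 and 178, and filamin C, Flnc, at 148 and 145. Of 34 genes with a level 7 reached 100 FPKM in both libraries and 26 reached 10. Telethonin, Tcap, which caps titin in the mature Z-disc, was at 5.82 and 6.32 FPKM. Thus the list held both leading and weakly represented parts of the same structure.

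Excitation-contraction coupling genes were present at moderate levels. These proteins carry the membrane signal to the calcium store of the sarcoplasmic reticulum and pump calcium back. Cacng1, a subunit of the voltage-sensing calcium channel, was highest by the mean, at 284 and 338 FPKM, with Bin1, which shapes T-tubule membranes, at 287 and 318 and the fast calcium pump Atp2a1 at 324 and 280. In library A Atp2a1, Bin1 and sarcalumenin, Srl, at 298 and 214 FPKM, were above Cacng1. The slow and cardiac pump Atp2a2 was at 218 and 189 FPKM, so that Atp2a1 was higher by 1.49-fold and 1.48-fold. The calcium buffer of slow and cardiac muscle, Casq2, at 185 and 192 FPKM, exceeded the fast form Casq1, at 23.7 and 30.2, by 7.80-fold and 6.35-fold. Pump and buffer therefore had opposite leading forms. Ryr1, the skeletal calcium release channel, was at 42.7 and 36.5 FPKM and Ryr3 at 8.34 and 5.43, and Cacna1s, the pore of the voltage sensor, at 30.1 and 29.8. Of 30 genes 8 reached 100 FPKM in both libraries and 23 reached 10. Parvalbumin, Pvalb, a calcium buffer of adult fast fibres, was at 79.3 FPKM in library A and 16.7 in library B, and no level can be given for it beyond that range.

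The fetal γ subunit of the acetylcholine receptor, the channel that opens muscle to nerve signals, was among its highest subunits. The α subunit Chrna1 was at 365 and 442 FPKM, the γ subunit Chrng at 393 and 401, Chrnb1 at 166 and 155 and Chrnd at 92.9 and 99.3. The adult ε subunit gene Chrne was not analysed here, so the fetal and adult forms were not compared. Chrng exceeded Chrnd, its neighbour on chromosome 1, by 4.23-fold and 4.04-fold, although a receptor holds them in equal number. The clustering protein Rapsn was at 70.2 and 77.1 FPKM and the adhesion molecule Ncam1 at 154 and 166, whereas the receptor kinase Musk was at 17.5 and 20.6 and acetylcholinesterase, Ache, at 1.16 and 1.23. Of 12 genes 4 reached 100 FPKM in both libraries.

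Genes that link the cytoskeleton to the matrix were listed together, with integrins beside the dystrophin complex, and the integrins stood highest. Itga7, the muscle laminin receptor, was at 371 and 399 FPKM, and its partner Itgb1 at 311 and 323. Dystroglycan, Dag1, stood at 160 and 132 FPKM, Sntb1 at 56.7 and 59.0, and the sarcoglycan Sgcb at 48.8 and 60.2. Utrophin, Utrn, the relative of dystrophin that prevails in immature fibres, was at 27.2 and 24.3 FPKM. Dystrophin itself, Dmd, was not analysed here. Of the 16 listed genes 3 reached 100 FPKM in both libraries, Itga7, Itgb1 and Dag1, and 13 reached 10.

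Set against each other as pairs, early and general forms did not prevail throughout. Of 42 pairs drawn up by known use, 34 had a level for both members. A member was called higher when the ratio lay on the same side of 1 in both libraries and its mean log2 value was larger than the difference between libraries. By this rule the early, slow or general member was higher in 16 pairs, the adult, fast or muscle member in 13, and 5 could not be ranked. Of 7 fetal against adult pairs the fetal member was higher in 4 (among them Myh3 over Myh4, Myh3 over Myh1 and Tnnt2 over Tnnt3) and the adult member in 3 (Acta1 over Actc1, Myl1 over Myl4, and Myh1 over Myh8). Of 8 slow against fast pairs the fast member was higher in 5 and the slow or cardiac member in 2, Tnnc1 and Casq2. Several pairs share a gene, such as the 3 that include Myh1, so these counts are not independent.

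Between general and muscle-specific forms, the metabolic genes leaned to the general member. Of 19 such pairs the general form was higher in 10, the muscle form in 5, and 4 could not be ranked. In cytochrome oxidase, the last complex of the respiratory chain, Cox7a2, at 185 and 257 FPKM, exceeded the muscle form Cox7a1, at 20.1 and 14.4, by 9.21-fold and 17.9-fold. Cox8a exceeded Cox8b by 6.89-fold and 8.62-fold, and Cox6a1 exceeded Cox6a2 by 3.35-fold and 4.33-fold. The general form thus led in all 3 subunits for which a pair was compared. In glycolysis Eno1 was above the muscle enolase Eno3 by 2.24-fold and 2.27-fold, Pgam1 above Pgam2 by 2.13-fold and 2.81-fold, and Hk1 above Hk2 by 2.88-fold and 2.78-fold.

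Other pairs went the opposite way or could not be ranked. The muscle phosphorylase Pygm, at 39.3 and 38.0 FPKM, which releases glucose from glycogen, exceeded Pygb by 3.33-fold and 3.48-fold, and muscle phosphofructokinase Pfkm exceeded Pfkl by 1.77-fold and 1.40-fold. Ryr1 exceeded Ryr3 by 5.13-fold and 6.72-fold. Muscle creatine kinase, Ckm, at 659 and 571 FPKM, and the brain form Ckb, at 637 and 878, changed order between the libraries. Desmin and vimentin, Vim, at 1278 and 1514 FPKM, were also too close to rank, with a ratio of 1.098 and 1.024. So were the caveolins Cav1 and Cav3, because Cav3 was at 27.7 FPKM in library A and 56.1 in library B, and the carriers Slc25a5 and Slc25a4.

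**Figure D3:**
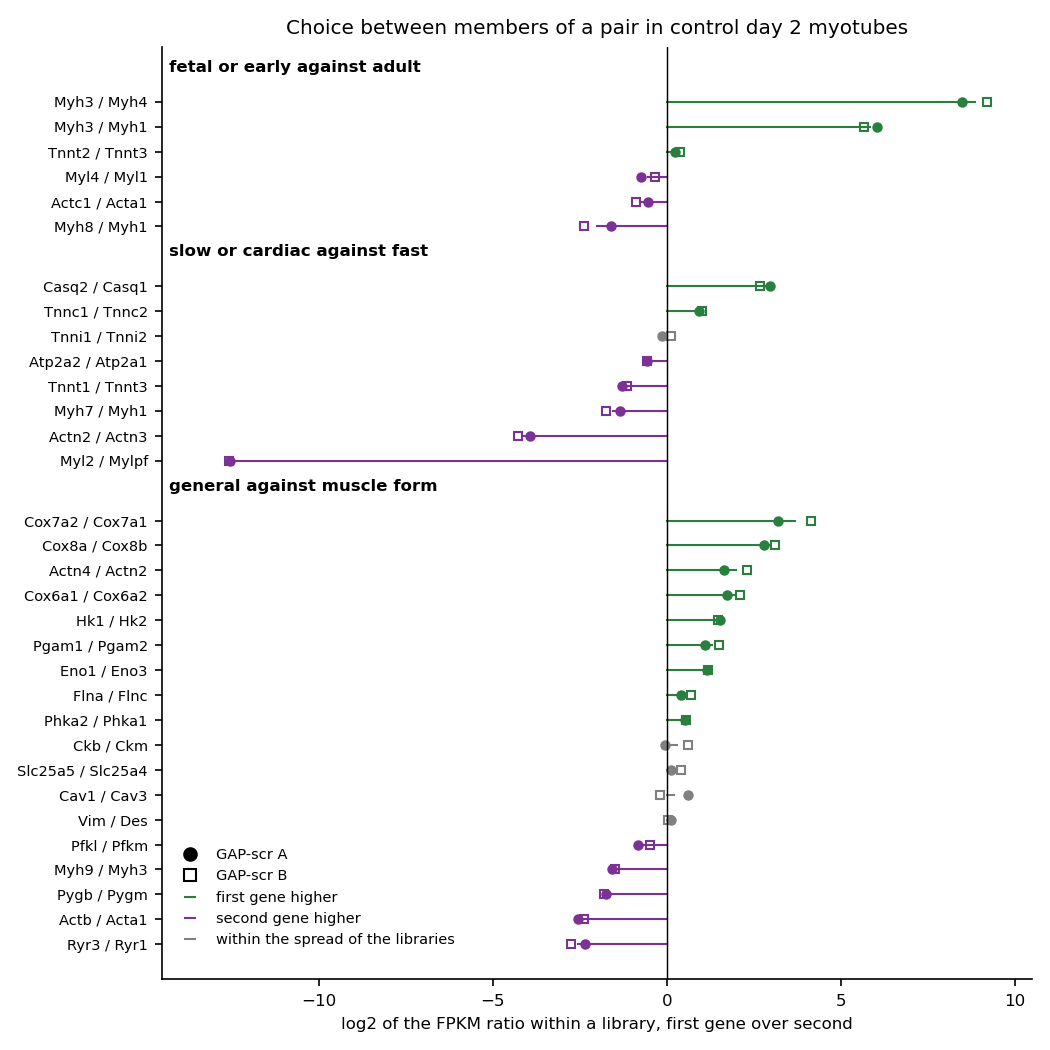
log2 ratio of FPKM within a library for 32 of the 34 pairs with both levels, with the early, slow or general gene over the adult, fast or muscle gene, a filled circle for library A and an open square for library B, and a bar to their mean. Green marks the 14 drawn pairs in which the first gene was higher, purple the 13 in which the second was, and grey the 5 that could not be ranked; Myl2 over Mylpf lies farthest to the left and Myh3 over Myh4 farthest to the right.

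Glycolytic genes stood high among those of energy metabolism. Aldolase, Aldoa, was at 1652 and 1608 FPKM, lactate dehydrogenase Ldha at 966 and 1145, and pyruvate kinase Pkm at 820 and 1034. Of 19 glycolytic genes 12 reached 100 FPKM in both libraries, and the list held 1.98% and 2.24% of the summed FPKM. Myoglobin, Mb, the oxygen store of muscle, was at 750 and 700 FPKM. In the wider list of muscle energy genes 11 of 25 reached 100 FPKM and 24 reached 10.

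Among the regulators of differentiation the commitment factor led. Myogenin, Myog, which is switched on as myoblasts commit, was at 982 and 846 FPKM, and Myod1, which acts in both myoblasts and myotubes, at 128 and 152, a ratio of 7.69 and 5.57. Myf5, a factor of undifferentiated myoblasts, was at 14.8 and 11.6 FPKM. Among Mef2 factors, which act with the MyoD family, Mef2a was at 79.7 and 68.7 FPKM, Mef2d at 30.2 and 35.2 and Mef2c at 1.63 and 1.67. The E-protein partners Tcf12 and Tcf3 stood at 59.7 and 54.0 and at 31.07 and 35.03 FPKM. Of 20 factors with a level 2 reached 100 FPKM in both libraries and 14 reached 10. Myf6, Pax3, Pax7 and Msc were not analysed here.

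Fusion genes had a median of 55.8 FPKM, against 12.1 for all genes. Myomaker, listed as Tmem8c, was at 660 and 734 FPKM, and myomerger, listed as Gm7325, at 519 and 597. These membrane proteins drive myoblast fusion. The tetraspanins Cd81 and Cd9, which modulate fusion, were at 341 and 430 and at 225 and 252 FPKM, and the sialomucin Cd164 at 402 and 347. Of 21 genes 9 reached 100 FPKM and 18 reached 10 in both libraries.

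Most cell cycle genes were low, and the inhibitor Cdkn1a was high. Of 37 genes of replication and mitosis none reached 100 FPKM, 4 reached 10 in both libraries, and 24 were under 5 in both, with a median of 3.72 FPKM. The proliferation marker Mki67 was at 2.04 and 2.07 FPKM, Cdk1, the mitotic kinase, at 4.62 and 5.70, Ccnb1, its cyclin, at 2.95 and 4.43, and Top2a, a topoisomerase of dividing cells, at 7.33 and 8.17. The 4 members at or above 10 FPKM all act in DNA synthesis and not in mitosis. They were the ribonucleotide reductase subunits Rrm2, at 56.6 and 49.9 FPKM, and Rrm1, at 24.3 and 26.3, the sliding clamp Pcna, at 30.9 and 44.0, and the helicase subunit Mcm7, at 13.7 and 14.4.

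The inhibitor p21, Cdkn1a, which holds myotubes out of the cycle, was at 993 and 970 FPKM, 486-fold and 468-fold above Mki67. Cdkn1c, also an inhibitor, was at 148 and 137 FPKM, and Ccnd3, the D cyclin that stays on in differentiated muscle, at 112 and 130. The growth arrest genes Gadd45a, Gadd45g and Gadd45b stood at 154 and 139, at 139 and 135 and at 72.4 and 75.4 FPKM. Other inhibitors were low, with Cdkn1b at 17.9 and 15.9 FPKM, Cdkn2c at 5.99 and 5.75 and Cdkn2d at 1.73 and 2.16. Of 14 genes of cell cycle exit 5 reached 100 FPKM and 10 reached 10 in both libraries.

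Genes of myoblasts and satellite cells, the resident stem cells of muscle, were near the middle of the transcriptome. Of 31 with a level 3 reached 100 FPKM and 19 reached 10 in both libraries, against 6.67% and 53.5% of all genes, and their median was 14.0 FPKM. The 3 highest are also used in differentiating muscle or at its membrane: Itga7, Hes6, an antagonist of Hes1, at 241 and 259 FPKM, and the engulfment receptor Megf10 at 102 and 101. Notch signalling, which keeps precursors undifferentiated, was represented by Heyl, at 68.3 and 50.4 FPKM, and Notch3, at 53.6 and 52.8. The Id factors, which block MyoD partners, were at 40.8 and 52.0 FPKM for Id2, 31.7 and 37.4 for Id1, and 27.4 and 27.9 for Id3. Cd34 was at 9.10 and 10.7 FPKM, Hmga2 at 2.97 and 3.53 and Twist1 at 1.68 and 2.45.

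Myotube genes and matrix genes were high together, as were several fibroblast markers. The matrix proteins Fn1, at 1297 and 1346 FPKM, Sparc, at 1176 and 1250, Col1a1, at 778 and 808, Col1a2, at 767 and 767, Bgn, at 631 and 634, and the protease inhibitor Timp1, at 342 and 522, led a list in which 16 of 41 reached 100 FPKM and 39 reached 10. Myogenic cells and fibroblasts both make matrix, so these genes do not tell the cell types apart. Of 16 fibroblast markers 9 had a level, summing to 4737 and 5381 FPKM, mostly through S100a4 and Vim. Of the 9, 7 reached 10 FPKM in both libraries, against 53.5% of all genes. Collagen Col3a1 was at 394 and 350 FPKM, Postn at 84.8 and 97.2, Pdgfrb at 46.3 and 45.1 and Dcn at 52.6 and 37.2. The lowest of the 9 was Pdgfra, a marker of muscle-resident fibroblast precursors, at 1.69 and 1.51. The share of these genes that came from cells other than myotubes was not tested.

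Smooth muscle markers were partly present, and the cardiac, macrophage, adipocyte and neural lists had few members with a level. Of 10 smooth muscle markers 6 had a level, and Acta2 held most of their sum. Of the 6, 4 reached 10 FPKM in both libraries, against 53.5% of all genes. Tagln was at 58.9 and 81.0 FPKM, Smtn at 51.8 and 44.8, Actg2 at 27.5 and 34.7, Lmod1 at 6.24 and 3.88 and Cnn1 at 2.87 and 1.76. Of 13 cardiac markers 4 had a level: Tnnt2, which embryonic skeletal muscle shares, Gata4 at 6.53 and 6.71 FPKM, Tnni3 and Myl2. Of 11 macrophage markers 2 did, Cd14 at 2.75 and 3.13 FPKM and Cd68 at 0.374 and 0.917, and of 10 adipocyte markers 2, with a sum of 2.22 and 2.90. Of 12 neural and glial markers 3 did, with a sum of 12.9 and 18.8 FPKM, most of it from the tubulin Tubb3 at 11.04 and 15.96. No marker of the endothelial list, of 10, was analysed here. The 6 markers set down for myotubes, Myog, Ckm, Acta1, Tmem8c, Chrna1 and Des, all reached 100 FPKM in both libraries. They were chosen with earlier results of these data known, so this is no check of the label of the cells.

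**Figure D4:**
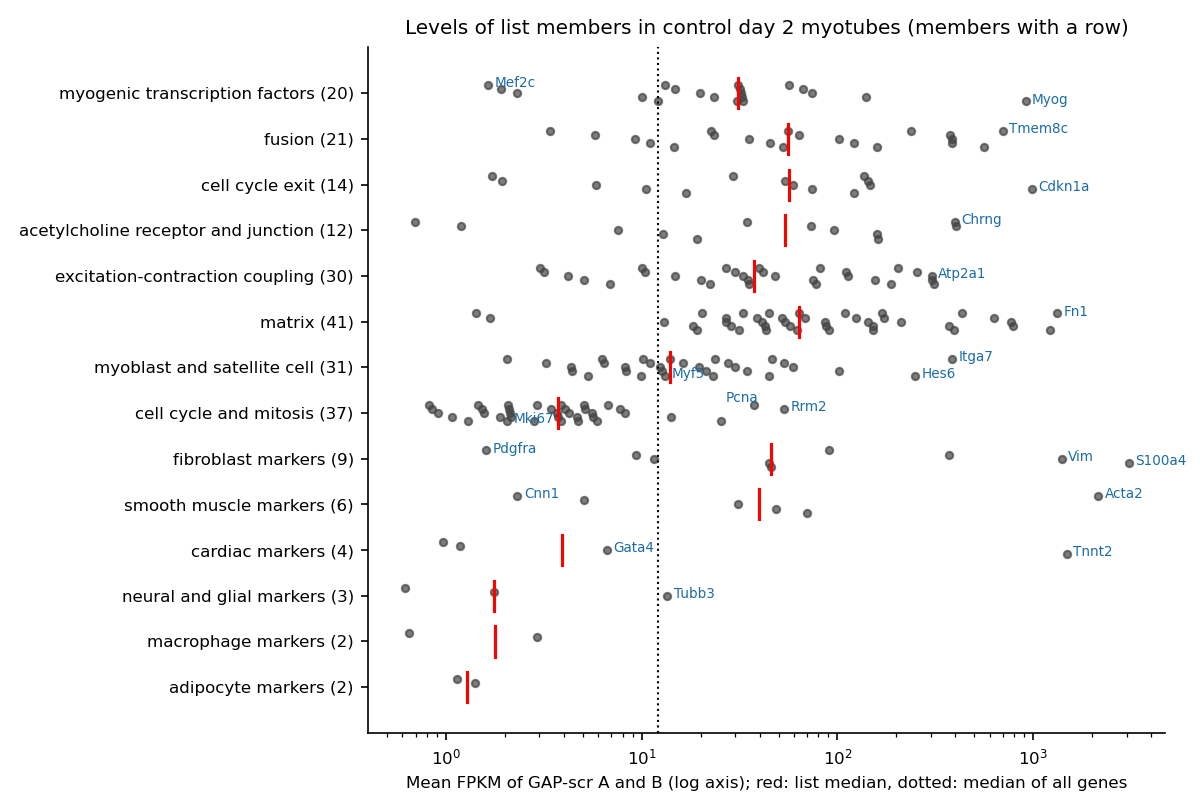
Mean FPKM of both libraries (horizontal log axis) for each list member with a level, 1 point per gene, with the number of such genes in brackets, the list median in red and the median of all genes, 12.1 FPKM, dotted. The medians of the fusion list (55.8 FPKM) and of the cell cycle exit list (56.7 FPKM) lie to the right of the dotted line and that of the cell cycle and mitosis list (3.72 FPKM) to its left.

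The list of myokines and secreted growth factors was led by the insulin-like growth factor axis. Secreted proteins outside this list, such as the matrix protein Fn1, stood higher. Igf2, a growth factor of fetal muscle, was at 533 and 441 FPKM and its binding proteins Igfbp5 and Igfbp2 at 314 and 222 and at 120 and 140. Fgf21, a hormone that stressed muscle can release, was at 313 and 202 FPKM, Fstl1 at 151 and 158 and Vegfa at 107 and 118. Of 24 genes of this list with a level 6 reached 100 FPKM in both libraries. Imprinted genes can be expressed from 1 parental copy, and FPKM of whole genes does not show whether they were here. Among 16 genes of the imprinted list with a level, H19, Gnas, Igf2 and Cdkn1c reached 100 FPKM, with Gnas, a G protein subunit, at 730 and 857. H19 and Igf2 are neighbours that share enhancers, and H19 was the higher of the 2 in both libraries. Of the other long non-coding RNAs Malat1 was at 382 and 254 FPKM, Snhg1, a host of small nucleolar RNAs, at 173 and 169 and Neat1 at 64.0 and 73.8.

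The libraries agreed closely for most genes. Over the 8297 genes whose mean was 5 FPKM or more, the median absolute log2 difference was 0.157 on the log2(FPKM + 1) scale. The median difference was 0.151 for genes between 100 and 1000 FPKM and 0.204 for the 98 genes above 1000. Between the libraries 259 genes differed over 1.5-fold (3.12%), of which 161 were higher in library B (1.94%) and 98 higher in library A (1.18%). With the libraries scaled to the same median the split was 196 and 75. Since each side is 1 library, these differences have no replicate check.

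The genes that differed most between the libraries were largely not muscle genes. The non-coding RNA Rmrp, which has no long polyadenylated tail, was at 142 FPKM in library A and 3.78 in library B, a 37.6-fold difference in the same direction as Rn45s. Lars2, the mitochondrial leucyl-tRNA synthetase, was 6.96-fold higher in A, at 128 and 18.4 FPKM, the pseudogene Oaz1-ps stood at 197 and 38.3, and Pisd-ps3 at 11.3 and 0.573. In the other direction Rnaset2b was at 2.42 and 36.8 FPKM, Scand1 at 11.3 and 53.6, D330050I16Rik at 3.66 and 18.3, the connexin Gja5 at 3.48 and 16.7 and the tendon factor Scx at 110 and 291. Near-identical copies were split unevenly: Eif3j1 was at 26.6 and 4.01 FPKM and Eif3j2 at 9.79 and 27.5, while their sum was 36.4 and 31.5. Of the contractile families none had a member with a mean of 5 FPKM or more that differed over 1.5-fold, outside the giant scaffolds and the Z-disc list.

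**Figure D5:**
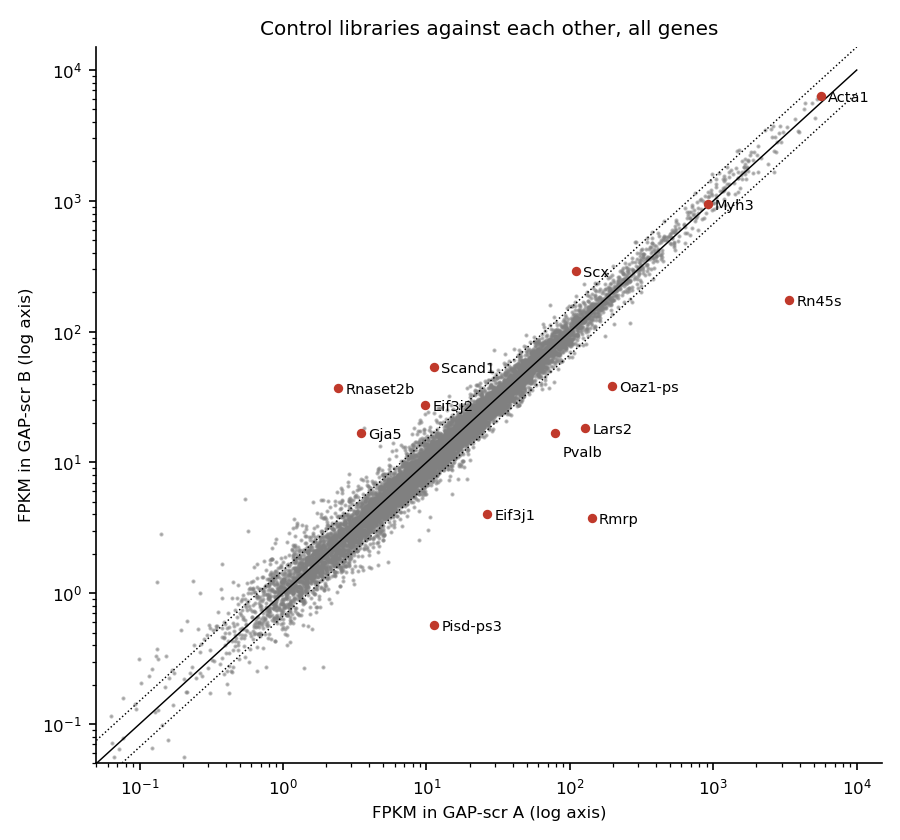
FPKM in library B against FPKM in library A for 11218 genes (log axes), with a solid line at equal levels and dotted lines at 1.5-fold. Acta1 and Myh3 lie near the line of equality, while Rn45s, at 3387 and 176 FPKM, and Rmrp, at 142 and 3.78 FPKM, lie far below it; 10 genes under 0.05 FPKM in a library are not drawn.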

How the data were processed

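Polyadenylated RNA of in vitro differentiated mouse myotubes was sequenced by the authors with a TruSeq stranded mRNA kit, per the labels' protocols. The submitters' processing notes name CASAVA, FastQC, Trimmomatic, cutadapt, Bowtie2, TopHat2, Cufflinks, Cuffdiff, bedtools, MACS and, as build, mm9, but give no versions and no role for any of them. The authors deposited FPKM values for 11228 genes. The choice of genes for that table, and the assignment of reads that match several genes, are not given in the sources used here. Charme is not analysed here, some list members and pairs are not reported by name, and neither the 4 knock-down libraries nor the peaks of the 4 ChIRP libraries were used.

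The 2 GAP-scr columns were taken as deposited, without scaling. Genes were ranked by their mean, shares were taken of the summed FPKM of a library without Rn45s, and ratios of paralogs were taken within a library. Differences between the libraries were taken on the log2(FPKM + 1) scale for genes whose mean was 5 FPKM or more. No test was made. Named genes are the 20 highest, all members of the contractile families, the 42 pairs, up to 6 highest members of each other list with its lowest where low levels are the point, and up to 6 genes with the largest fold each way between the libraries. Outside this rule Tcap, Cacna1s, Musk, Ache, Myf5, Mef2c, Mef2d, Cdkn1b, Cdkn2c and Cdkn2d were named after their values were seen. The 39 lists, the pairs and the rule were chosen with earlier results of these data known. Genes of the lists and pairs for which no level is given were not analysed here. Promoter sequences came from RefSeq (GRCm38.p6), of which the first entry per gene was used. Of 11227 genes 9017 (80.3%) matched, 8437 by symbol and 580 by an older symbol. Gene order came from the same annotation, and no coordinates of the mm9 build were used. Python 3.11.15, pandas 2.3.3 and numpy 2.4.6 were used. The counting of differing genes was tried on simulated data with large planted changes and less spread than these libraries show. That trial checked the counting and not whether the genes that differed here would differ again. Alternatives were other pseudocounts, minimums and folds, averaging on a log scale, keeping Rn45s, scaling to the same median and leaving out each library.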

Additional observations from a re-analysis of the deposited data

How the results depend on the processing

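Among the ranked pairs 0 changed direction under the alternatives that were run, but this outcome was fixed in advance. A ranked pair had to lie on the same side of 1 in both libraries. Adding the same value to both genes cannot change which is higher. Tnni1 and Tnni2, Ckb and Ckm, and Cav1 and Cav3, which could not be ranked, change order with the library used. Counts moved mainly where their own limit was moved. Genes at or above 100 FPKM in both libraries numbered 369 with the minimum doubled and 1565 with it halved, and cell cycle genes at or above 10 FPKM numbered 8 with it halved. Genes differing between the libraries numbered 36 at a fold of 2, 393 with a minimum mean of 1 FPKM and 402 with no filter. With each library alone the 10 highest genes held 8.77% to 9.19% of the sum, the 100 highest 35.5% to 37.4%, the sarcomere lists 5.89% to 5.93%, ribosomal proteins 20.02% to 21.3%, Actc1 35.1% to 40.9% of its pair with Acta1, and Myh3 plus Myh8 97.2% to 97.5% of the sarcomeric heavy chains. Genes at or above 100 FPKM then numbered 802 to 805 and myoblast genes at or above 10 FPKM 20 to 21, cell cycle genes 4, and pairs led by the early, slow or general gene 19 to 20. With 1 added to each value, the pair ratios moved by up to 1.03 on the log2 scale. No paired analysis was possible because the libraries form 1 group and no groups are compared. Weighting by protein length was not run, because no protein lengths were used here. Depth is unknown, so how far counting error sets the levels near 1 FPKM, such as those of Myl2, Tnni3 and Mki67, cannot be said.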

Other observations

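Variant histones, which are made outside S phase, held most of the histone RNA in the control libraries. H3f3a stood at 528 and 481 FPKM in libraries A and B, H3f3b at 398 and 369, H2afz at 223 and 293 and the linker histone H1f0 at 104 and 124. Of 19 histone genes with a level 4 reached 100 FPKM in both libraries, and 6 were under 5 in both. Replication-dependent histone messages mostly lack a poly(A) tail, so a polyadenylated library counts them poorly. Among 11 tubulins, the subunits of microtubules, Tuba1a led at 940 and 1091 FPKM, followed by Tubb6 at 542 and 610, a β-tubulin that is high in regenerating muscle. Tuba1b stood at 243 and 336 FPKM, Tuba4a at 253 and 250, Tubb5 at 149 and 234 and Tubb2a at 161 and 211.

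Chaperones were also high, with 21 of 31 at or above 100 FPKM in both libraries. Hspa8, the constitutive heat shock cognate, stood at 1213 and 1266 FPKM, Hsp90ab1, its cytosolic partner, at 1066 and 987, and the chaperonin subunits Cct5 and Cct2, which fold actin and tubulin, at 475 and 502 and at 380 and 364. In mitochondria the nuclear-encoded respiratory chain was led by Cox6c at 1253 and 1353 FPKM, Atp5b at 1145 and 1185 and Atp5k at 1190 and 1038. Its median was 169 FPKM over 81 genes, while that of the 76 mitochondrial ribosomal proteins was 35.8 FPKM, and 3 of these reached 100 FPKM in both libraries.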
